A study of Canis lupus familiaris with 8 samples.

Results

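The genes described here are 31 transporters, pumps, channels and proteins that assemble with them, among 32704 genes counted in MDCK I cells. They were taken from the study's published list of 989 genes. The study's text gives that list as raised by hyperosmolality and lowered by the first and the second Nfat5 siRNA construct. In these counts 24 of the 31 genes had those directions and 7 had others. A listed gene was included if its symbol starts with SLC, ABC, ATP, KCN, AQP, CLCN or SCNN, and the 3 carriers of organic osmolytes, SLC6A6, SLC6A12 and SLC5A3, were left out. The 31 genes hold 16 symbols starting with SLC, 7 with ATP, 3 with KCN, 2 with ABC, 2 with CLCN, 1 with AQP and 0 with SCNN, and they lie on 21 chromosomes.

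MDCK I is an established epithelial cell line from dog kidney. Cells were transfected with 100 nM siRNA and then kept in normal growth medium (300 mOsm) or given medium with added raffinose, a sugar that raises the osmolality to 500 mOsm, for 24 h. There were 4 groups of 2 replicates. Neg-siRNA, the control siRNA, was used at both osmolalities, and Nfat5-1-siRNA and Nfat5-2-siRNA, each directed at Nfat5, were used at 500 mOsm only. Cells of passage 15 gave replicate 1 throughout and cells of passage 17 gave replicate 2, so n = 2 for every group value below, and values are given in the order of passage 15 and passage 17. All 8 libraries come from siRNA-transfected cells of the one cell line, and the control siRNA is directed at Slc22a6, itself a carrier gene, which the labels state to be unexpressed in these cells. No 300 mOsm library with an Nfat5 siRNA was analysed here, and no untransfected one. In bulk samples such as these, fewer cells expressing a gene and less RNA per cell cannot be told apart. Total counts ranged from 34564103 to 46043788 per library.

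No source used here pairs the symbol Nfat5 with a gene identifier of the count table. In RefSeq's dog annotation (UU_Cfam_GSD_1.0) NFAT5 lies between NQO1 and CYB5B, and the gene beyond NQO1 in the count table was ENSCAFG00000020254, which was taken as the likely siRNA target by this position alone. It had 21.8 and 23.6 CPM in the control cells at 300 mOsm, 85.9 and 78.5 in those at 500 mOsm, 104 and 88.1 with Nfat5-1-siRNA and 72.2 and 73.5 with Nfat5-2-siRNA. Its log2 fold change was 1.85 ± 0.15 with hyperosmolality. With Nfat5-1-siRNA it was 0.22 ± 0.14 and with Nfat5-2-siRNA -0.17 ± 0.14, called with neither, so the level of this gene is no check on the siRNA labels. The study also reports Nfat5 mRNA as raised by hyperosmolality and unaffected by the siRNAs. It reports lower Nfat5 protein and lower taurine uptake with them.

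Cells in a hyperosmotic medium lose water and shrink, and they regain volume by taking up ions through coupled transporters and later by exchanging part of these ions for organic osmolytes. NFAT5, also called TonEBP, is the transcription factor best known for raising the genes of osmolyte uptake and synthesis in the renal medulla, where osmolality is high. The sodium pump, which exports sodium and imports potassium at the cost of ATP, keeps the gradients on which most solute carriers run, and water channels, potassium channels and chloride transporters set how fast water and ions cross the membrane.

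The list itself was drawn from 3 comparisons: Neg-siRNA (500 mOsm) against Neg-siRNA (300 mOsm), and each Nfat5 siRNA against Neg-siRNA at 500 mOsm. Changes in these 3 comparisons therefore chose the genes and are given as a description, with no p-value. A gene is called higher or lower here where the adjusted p-value of edgeR (quasi-likelihood test, Benjamini-Yekutieli adjustment over all 19835 genes tested) was under 0.05, and all 31 genes passed the filter of a summed count of at least 5. Levels are given as CPM, the count scaled to the TMM-adjusted size of its library, and levels of different genes are compared only per kilobase of exon.

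At 500 mOsm, 23 of the 31 genes were called higher and 4 lower in the cells with Neg-siRNA. Of all genes tested, 11.3% were called higher and 9.23% lower in that comparison (20.6% in either direction), and nothing is read from the count since the comparison chose the genes. With Nfat5-1-siRNA, 17 were called lower and 4 higher, beside 4.53% and 3.4% of all genes (7.93% in either direction). With Nfat5-2-siRNA, 21 were called lower and 5 higher, beside 7.38% and 4.67% (12% in either direction). With the replicate number, which is the passage, as a block, all 31 were called by edgeR in each comparison, beside 33.1%, 21.5% and 26.1% of all genes. DESeq2 with the block called 31, 29 and 29 of them, beside 6049 of 15605, 3828 of 14451 and 4624 of 14451 genes tested. Without the block all 31 were also called in each comparison by DESeq2, beside 32.2%, 18.6% and 24.3% of the genes it tested, and by edgeR with Benjamini-Hochberg adjustment, beside 35.5%, 20.3% and 26.5%. The calls with Nfat5-1-siRNA dropped to 2 of the 31 without its replicate 2 and to 11 without its replicate 1, beside 0.812% and 3% of all genes in these fits, and to 9 without either Neg-siRNA (500 mOsm) replicate, beside 3.47% without replicate 1 and 2.14% without replicate 2. Those with Nfat5-2-siRNA dropped to 16 without its replicate 2, beside 6.07% of all genes, and to 17 and 15 without replicates 1 and 2 of Neg-siRNA (500 mOsm), beside 5.68% and 4.9%. The replicates of the compared groups did not overlap for any of the 31 genes in any of the 3 comparisons, which was also true of 65.2%, 60% and 59.7% of all genes, and every gene kept its direction in passage 15 and in passage 17. Both Nfat5 siRNAs were compared with the same 2 Neg-siRNA (500 mOsm) libraries, and these also gave the hyperosmotic change, so the 3 comparisons are not independent.

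**Figure D1:**
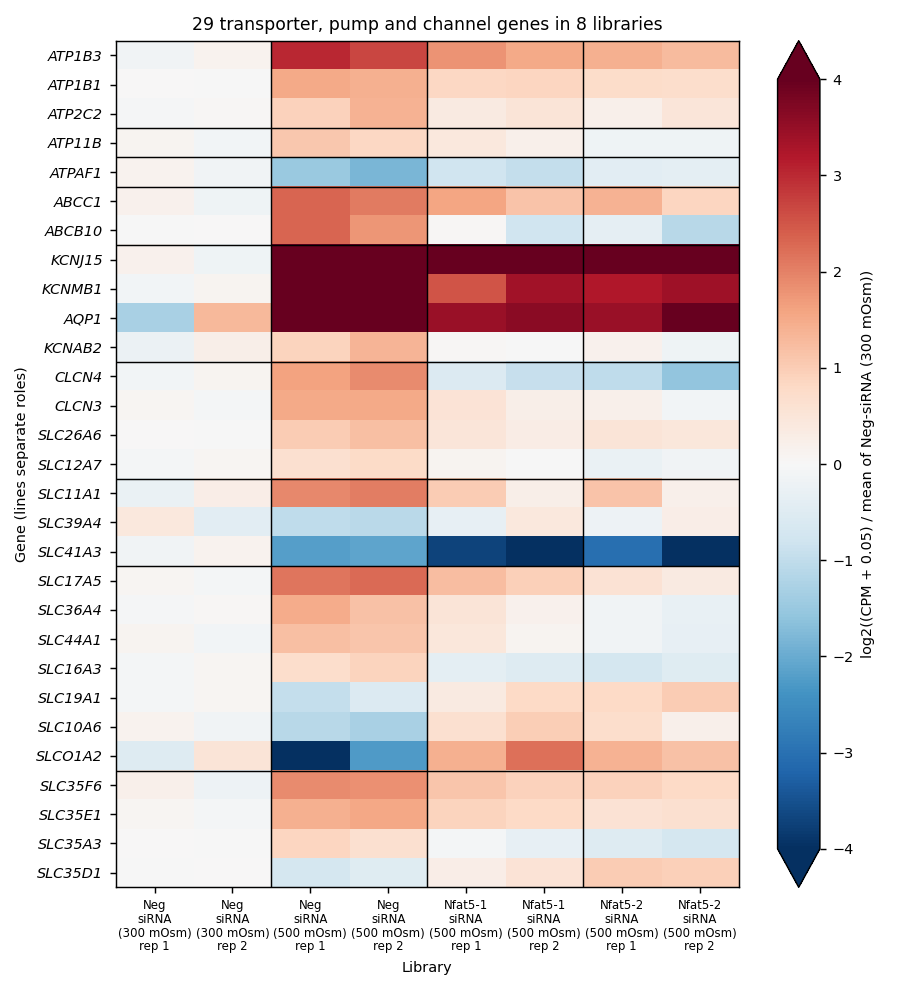
Level of 29 of the 31 genes (rows, in groups by role) in each of the 8 libraries (columns), as the log2 of CPM plus 0.05 relative to the mean of the Neg-siRNA (300 mOsm) libraries, with the colour scale ending at 4 in both directions. The Neg-siRNA (500 mOsm) columns are red for 22 genes and blue for 7, and the Nfat5-siRNA columns are paler for most of the 22, while SLC41A3 becomes a deeper blue.

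The directions fell into 3 patterns. For 24 genes the level was higher at 500 mOsm and lower with both Nfat5 siRNAs, with a median log2 fold change of 1.64 (range 0.70 to 8.27) for hyperosmolality, -1.05 (-3.35 to -0.63) for Nfat5-1-siRNA and -1.29 (-3.05 to -0.64) for Nfat5-2-siRNA. For 6 genes (ATPAF1, SLC10A6, SLC19A1, SLC35D1, SLC39A4 and SLCO1A2) it was the reverse, with medians of -1.17, 1.25 and 1.61. SLC41A3 alone was lower in all 3. The median log2 fold change over all genes tested was 0.00, -0.07 and -0.03 in the same order. Calls in all 3 comparisons were reached by 16 of the 24 genes and 2 of the 6, and not by SLC41A3, beside 3% of all genes; nothing is read from this count either. The 31 genes together took 0.266% and 0.256% of the counts in the control libraries at 300 mOsm, 0.722% and 0.651% in those at 500 mOsm, 0.454% and 0.383% with Nfat5-1-siRNA and 0.426% and 0.373% with Nfat5-2-siRNA. The list came from the study's own test. In an edgeR fit with the replicate block, 1936 genes passed the threshold in all 3 comparisons, so this threshold is wider than the list. Of the 31 genes the one nearest to it was ATPAF1, with log2 fold changes of -1.66, 0.79 and 1.26 there, and the gene of the whole table just beyond it, ENSCAFG00000012776, stood at -0.51, 1.27 and 1.12.

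**Figure D2:**
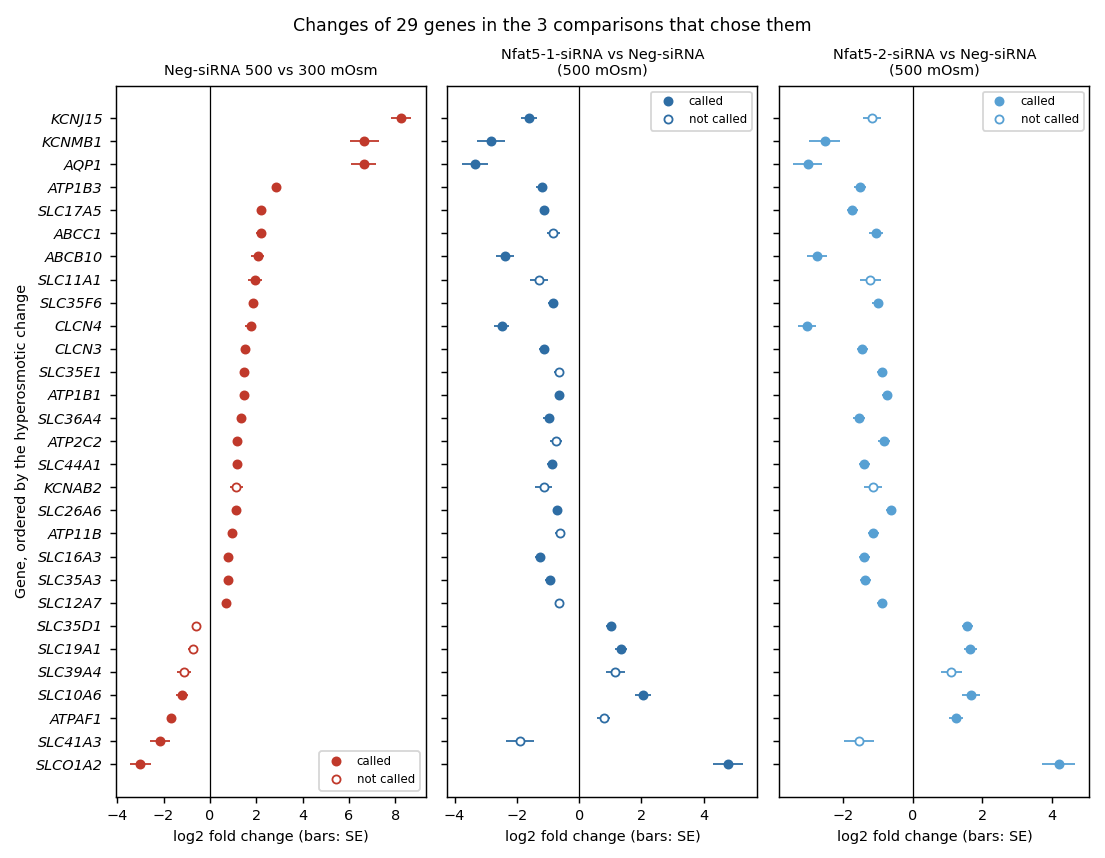
Log2 fold change (points) with its standard error (bars) for 29 of the 31 genes in the 3 comparisons that chose them, ordered by the hyperosmotic change. Filled points are called at an adjusted p-value under 0.05. The hyperosmotic changes run from -3.00 for SLCO1A2 to 8.27 for KCNJ15, and the siRNA panels mirror the sign for every gene but SLC41A3.

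The 2 beta subunits of the sodium pump, which carry it to the plasma membrane, changed by different amounts. ATP1B1 (chromosome 7, 29463118 to 29489488, CanFam 3.1) stood at 89.7 and 86.9 CPM at 300 mOsm, at 255 and 234 at 500 mOsm, at 155 and 160 with Nfat5-1-siRNA and at 148 and 143 with Nfat5-2-siRNA. ATP1B3 (chromosome 23, 37684435 to 37726702) stood at 43.9 and 52.7, at 388 and 310, at 166 and 137 and at 130 and 115 in the same groups. For both genes all 4 Nfat5-siRNA libraries lay between the control cells at 300 mOsm and those at 500 mOsm, without overlap. ATP1B1 rose by 1.47 ± 0.14 (log2 fold change ± SE) with hyperosmolality, which is 2.77-fold, and fell by 0.63 ± 0.13 with Nfat5-1-siRNA and by 0.75 ± 0.13 with Nfat5-2-siRNA, although the call with Nfat5-1-siRNA was made in 7 of the 17 settings tried, the reported one included. ATP1B3 rose by 2.85 ± 0.18, which is 7.22-fold, and fell 2.30-fold with Nfat5-1-siRNA and 2.85-fold with Nfat5-2-siRNA. Per kilobase, ATP1B1 averaged 37.8 CPM at 300 mOsm and 105 at 500 mOsm, and ATP1B3 55.7 and 402; the annotation gives ATP1B3 only 867 exonic bases, and a longer transcript would lower its value.

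**Figure D3:**
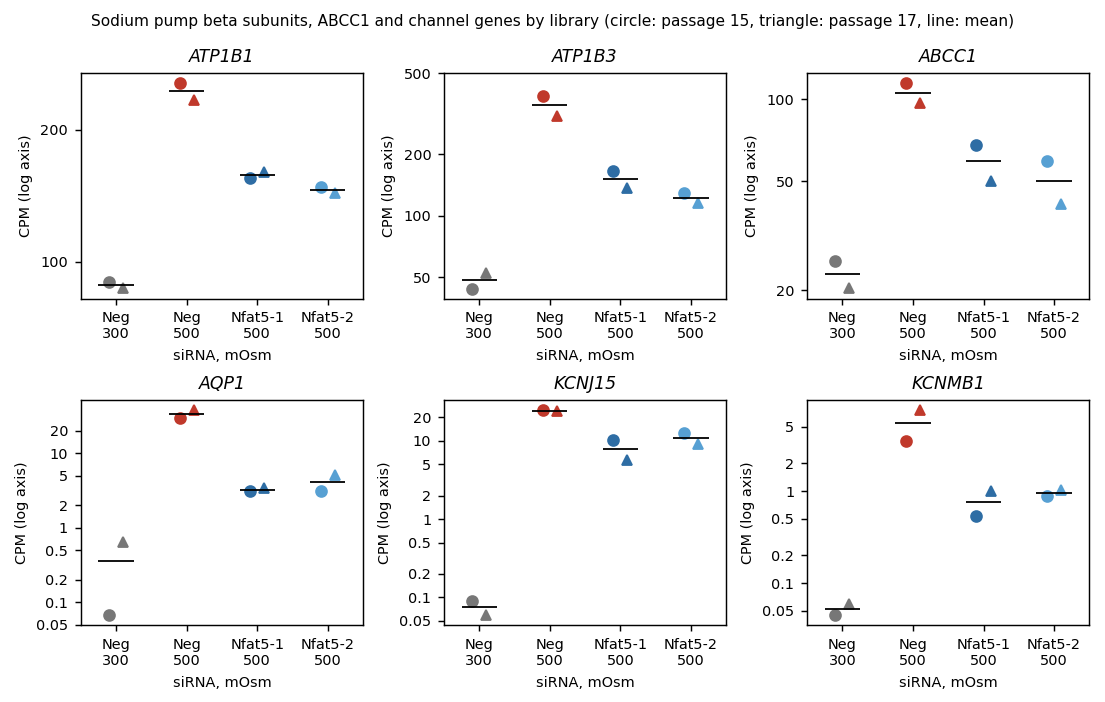
CPM (log axes) of the sodium pump genes ATP1B1 and ATP1B3 and of ABCC1, AQP1, KCNJ15 and KCNMB1 in each library, with the mean of the 2 replicates as a line. In all 6 panels the Nfat5-siRNA points lie below both Neg-siRNA (500 mOsm) points and above both Neg-siRNA (300 mOsm) points.

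ATP2C2, a pump of the secretory pathway for calcium and manganese, rose by 1.18 ± 0.18 on the log2 scale and fell by 0.83 ± 0.18 with Nfat5-2-siRNA, a call made in 6 of the 17 settings tried, and its value with Nfat5-1-siRNA was -0.74 ± 0.18, which was not called. ATP11B encodes a flippase, which moves phospholipids to the inner leaflet of membranes. ATP11B rose by 0.95 ± 0.16 and fell by 1.14 ± 0.16 with Nfat5-2-siRNA, with -0.63 ± 0.15 for Nfat5-1-siRNA. ATPAF1 is no transporter but a factor that assembles the mitochondrial ATP synthase, and is included through its symbol. It went from 18.3 and 14.9 CPM at 300 mOsm to 5.86 and 4.66 at 500 mOsm, and was 9.56 and 8.60 with Nfat5-1-siRNA and 12.2 and 12.7 with Nfat5-2-siRNA. The siRNA levels of ATPAF1 lay above the 500 mOsm control and below the 300 mOsm control in all 4 libraries. It shares 925 of its 2304 exonic bases with another annotated gene, and its counts are uncertain to that extent.

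Of the ATP-binding cassette transporters, ABCB10 sits in the inner mitochondrial membrane and ABCC1 exports glutathione conjugates and drugs from the cell. ABCB10 (chromosome 4, 9708883 to 9747007) had 76.8 and 78.6 CPM at 300 mOsm, 388 and 263 at 500 mOsm, 79.5 and 44.6 with Nfat5-1-siRNA and 60.1 and 36.0 with Nfat5-2-siRNA. In 3 of the 4 siRNA libraries ABCB10 was below both 300 mOsm libraries, and in the other one it was level with them. ABCB10 rose 4.19-fold and fell 5.24-fold with Nfat5-1-siRNA and 6.77-fold with Nfat5-2-siRNA. ABCC1 had 25.5 and 20.3, 114 and 96.9, 68.2 and 50.1, and 59.4 and 41.2 CPM in the same groups, so its siRNA levels stayed above both 300 mOsm libraries. ABCC1 rose by 2.20 ± 0.21 and fell by 1.07 ± 0.21 with Nfat5-2-siRNA, and its value of -0.84 ± 0.21 with Nfat5-1-siRNA was not called.

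Of the 4 genes of channels and their subunits, AQP1, KCNJ15 and KCNMB1 went from few reads at 300 mOsm to clear levels. KCNAB2 had at least 157 counts in every library. AQP1 (chromosome 14, 43592297 to 43605779) encodes a water channel of the plasma membrane. It had 0.0675 and 0.651 CPM at 300 mOsm, from 3 and 22 counts, and 29.1 and 37.3 CPM at 500 mOsm. With Nfat5-1-siRNA it had 3.07 and 3.43 CPM and with Nfat5-2-siRNA 3.07 and 5.12. The ratio of the 500 mOsm to the 300 mOsm level was 104 (exact 95% counting interval 70.6 to 162) in pooled counts. The passages differed by more than this interval, with log2 fold changes of 8.53 in passage 15 and 5.81 in passage 17, and the fitted log2 fold change of 6.63 became 5.62 and 8.88 without replicates 1 and 2 of Neg-siRNA (300 mOsm). AQP1 fell 10.2-fold with Nfat5-1-siRNA and 8.10-fold with Nfat5-2-siRNA. KCNJ15 (chromosome 31, 33385755 to 33386885) encodes an inwardly rectifying potassium channel. It had 4 and 2 counts at 300 mOsm, or 0.0900 and 0.0592 CPM, and 24.6 and 24.4 CPM at 500 mOsm, a ratio of 319 (146 to 871). With the siRNAs KCNJ15 kept 10.3 and 5.72 CPM (Nfat5-1) and 12.5 and 9.19 CPM (Nfat5-2). It fell by 1.61 ± 0.27 with Nfat5-1-siRNA, the smallest fall among the 3 channel genes with the largest osmotic change, and had -1.17 ± 0.26 with Nfat5-2-siRNA, which was not called.

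KCNMB1 encodes the beta subunit of the large-conductance calcium-activated potassium channel. It had 2 counts in each 300 mOsm library, or 0.0450 and 0.0592 CPM, against 3.50 and 7.49 CPM at 500 mOsm, a ratio of 109 (42.3 to 402). With Nfat5-1-siRNA it had 0.537 and 1.00 CPM and with Nfat5-2-siRNA 0.881 and 1.02. The fitted log2 fold changes of KCNMB1 were 6.66 for hyperosmolality, -2.83 for Nfat5-1-siRNA and -2.53 for Nfat5-2-siRNA. Over the 17 settings tried they ranged from 5.96 to 7.05, from -3.35 to -2.13 and from -2.88 to -1.78. The counting intervals of the channel genes cover counting error in pooled counts only, and they are too narrow where the mates of a read pair were counted separately. KCNAB2, a beta subunit of voltage-gated potassium channels, had log2 fold changes of 1.14 ± 0.27, -1.14 ± 0.27 and -1.15 ± 0.27 and was called in 5 of the 17 settings tried in each of the 3 comparisons, and not in the reported one.

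The 4 genes grouped as chloride and anion transporters, CLCN3, CLCN4, SLC12A7 and SLC26A6, rose at 500 mOsm. CLCN3 and CLCN4 encode chloride/proton exchangers of endosomes, SLC12A7 a potassium-chloride cotransporter that lets ions and water leave the cell, and SLC26A6 an exchanger of chloride, oxalate and bicarbonate. CLCN4 (chromosome X, 6853161 to 6922241) had 7.18 and 8.32 CPM at 300 mOsm, 23.7 and 28.8 at 500 mOsm, 5.33 and 4.04 with Nfat5-1-siRNA and 3.78 and 2.56 with Nfat5-2-siRNA. All 4 siRNA libraries were below both 300 mOsm libraries. CLCN4 rose 3.39-fold and fell 5.60-fold and 8.28-fold with the siRNAs. SLC12A7 had 140 and 153, 226 and 248, 158 and 145, and 122 and 133 CPM in the order of the groups, so that the siRNA libraries overlapped with the 300 mOsm level. SLC12A7 had the smallest rise of the 24 genes, 1.62-fold, and it fell by 0.89 ± 0.14 with Nfat5-2-siRNA, with -0.64 ± 0.14 for Nfat5-1-siRNA. CLCN3 rose by 1.51 ± 0.17 and fell by 1.12 ± 0.16 and 1.45 ± 0.16, and SLC26A6 rose by 1.11 ± 0.14 and fell by 0.71 ± 0.14 and 0.64 ± 0.14, the latter a call made in 6 of the 17 settings tried.

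Of the 3 metal ion carriers, SLC11A1 rose and SLC41A3 fell with hyperosmolality, and SLC39A4 was not called there (-1.12 ± 0.30). None of the 3 was called with either siRNA in the reported fit, and each of these calls was made in 5 to 7 of the 17 settings tried. SLC11A1, a proton-coupled carrier of iron and other divalent metals, went from 17.2 and 25.4 CPM to 78.8 and 86.0. It had 42.7 and 24.8 CPM with Nfat5-1-siRNA and 46.6 and 24.2 with Nfat5-2-siRNA, so the passage 17 siRNA libraries were at the 300 mOsm level of their passage and those of passage 15 were above it. SLC39A4, a zinc importer, had 21.9 and 11.99 CPM at 300 mOsm, 7.98 and 7.61 at 500 mOsm, 12.9 and 21.9 with Nfat5-1-siRNA and 14.2 and 19.3 with Nfat5-2-siRNA. Its levels with the siRNAs overlapped with those at 300 mOsm.

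SLC41A3 (chromosome 20, 114558 to 211683), a member of a magnesium transporter family, had 25.4 and 30.4 CPM at 300 mOsm, 6.02 and 6.43 at 500 mOsm, 2.11 and 1.21 with Nfat5-1-siRNA and 3.38 and 0.853 with Nfat5-2-siRNA. It fell 4.48-fold with hyperosmolality. Against the 300 mOsm level its log2 difference was -4.07 ± 0.46 with Nfat5-1-siRNA and -3.72 ± 0.46 with Nfat5-2-siRNA. The siRNA changes, -1.91 ± 0.44 and -1.56 ± 0.44, were called in 7 and 5 of the 17 settings tried, the replicate block and DESeq2 among them, and not in the reported one. The change with Nfat5-2-siRNA was -2.86 without replicate 1 of that group and -0.88 without its replicate 2.

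Carriers of organic solutes split into 4 genes with the common pattern and 3 with the reverse one. SLC16A3 exports lactate, SLC17A5 exports sialic acid from lysosomes, SLC36A4 carries amino acids and SLC44A1 carries choline. SLC16A3 had 304 and 337 CPM at 300 mOsm, 521 and 595 at 500 mOsm, 242 and 222 with Nfat5-1-siRNA and 198 and 227 with Nfat5-2-siRNA. Its siRNA levels were below the 300 mOsm level in all 4 libraries. SLC16A3 rose 1.74-fold and fell 2.41-fold and 2.63-fold with the siRNAs. SLC17A5 rose 4.62-fold, from 42.5 and 38.2 to 178 and 195 CPM, SLC36A4 rose 2.52-fold and SLC44A1 rose 2.22-fold, and all 3 fell with both siRNAs.

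SLCO1A2, which takes up bile acids and other organic anions, changed most of the genes with the reverse pattern. SLCO1A2 (chromosome 27, 26348490 to 26396959) had 8.66 and 18.1 CPM at 300 mOsm, 0.732 and 2.55 at 500 mOsm, 33.5 and 58.4 with Nfat5-1-siRNA and 33.1 and 28.2 with Nfat5-2-siRNA. Every siRNA library was above both 300 mOsm libraries. It fell 8.02-fold with hyperosmolality and rose 27.7-fold with Nfat5-1-siRNA and 18.4-fold with Nfat5-2-siRNA. These folds depend on single libraries. Without Neg-siRNA (500 mOsm) replicate 2 the log2 fold changes of SLCO1A2 were -4.23, 6.02 and 5.48, against -2.44, 4.23 and 3.68 without its replicate 1, and without Neg-siRNA (300 mOsm) replicate 2 the hyperosmotic one was -2.38. SLC19A1 carries folate and SLC10A6 sulfated steroids. SLC10A6 fell by 1.22 ± 0.25 on the log2 scale and rose by 2.04 ± 0.25 and 1.68 ± 0.25. SLC19A1 had -0.75 ± 0.19 for hyperosmolality, which was not called, and rose by 1.34 ± 0.19 and 1.66 ± 0.19.

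Among the SLC35 genes, SLC35A3 and SLC35D1 carry nucleotide sugars into the Golgi apparatus and the endoplasmic reticulum. SLC35E1 and SLC35F6 belong to the same family. SLC35E1 had 24.0 and 21.6, 60.8 and 67.2, 42.0 and 39.6, and 33.7 and 35.5 CPM in the order of the groups. Its siRNA levels lay between those of the controls, without overlap. SLC35E1 rose by 1.49 ± 0.15 and fell by 0.89 ± 0.15 with Nfat5-2-siRNA, with -0.65 ± 0.15 for Nfat5-1-siRNA, SLC35F6 rose by 1.86 ± 0.16 and fell by 0.85 ± 0.16 and 1.01 ± 0.16, and SLC35A3 rose by 0.76 ± 0.15 and fell by 0.95 ± 0.15 and 1.36 ± 0.16. SLC35D1 had -0.59 ± 0.16 for hyperosmolality and rose by 1.01 ± 0.16 and 1.56 ± 0.16.

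How far the siRNA levels lay from the 300 mOsm level differed between genes. This is a description, since it joins comparisons that chose the genes. Of the 24 genes higher at 500 mOsm, 13 had all 4 Nfat5-siRNA libraries above both Neg-siRNA (300 mOsm) libraries, among them ATP1B1, ATP1B3, ATP2C2, ABCC1, AQP1, KCNJ15 and KCNMB1. In 8 genes the libraries overlapped, among them ABCB10, ATP11B, CLCN3, KCNAB2, SLC11A1 and SLC12A7. In 3 genes, CLCN4, SLC16A3 and SLC35A3, all 4 siRNA libraries were below both 300 mOsm libraries. Of the 6 genes with the reverse pattern, 4 were above both 300 mOsm libraries in all 4 siRNA libraries (SLC10A6, SLC19A1, SLC35D1 and SLCO1A2), ATPAF1 was below and SLC39A4 overlapped. In all, 22 of the 31 genes had all 4 siRNA libraries on one side of both 300 mOsm libraries, beside 54.9% of all genes tested.

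**Figure D4:**
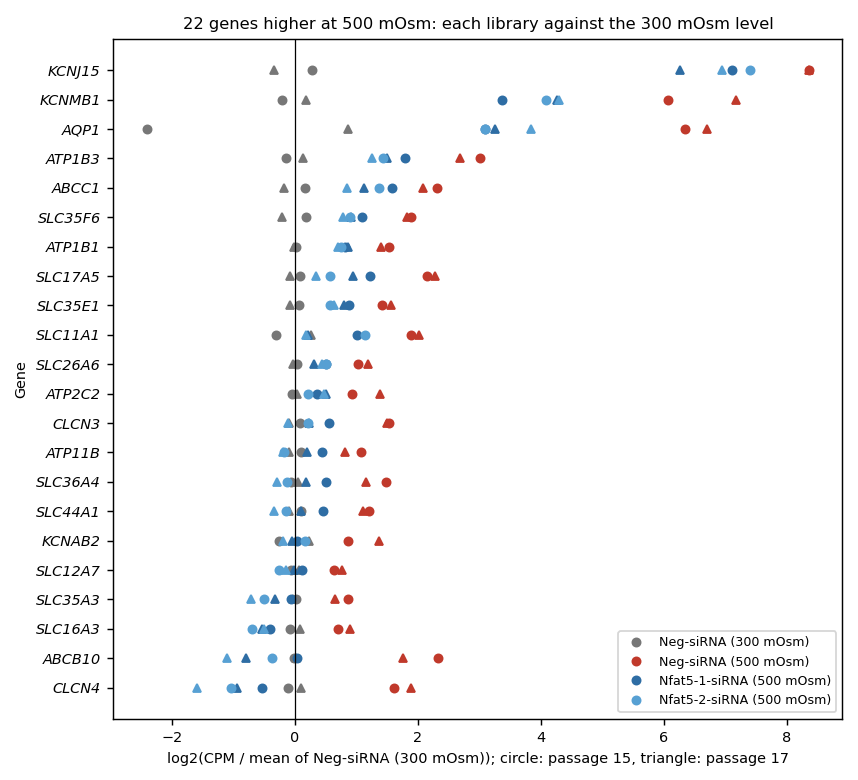
Level of 22 of the 24 genes with the common pattern in each library, as the log2 of CPM over the mean of Neg-siRNA (300 mOsm), ordered by the mean of the 4 Nfat5-siRNA libraries. The blue siRNA points lie left of both grey 300 mOsm points for CLCN4, SLC16A3 and SLC35A3 and far to the right for KCNJ15, KCNMB1 and AQP1.

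The siRNA constructs were then compared with each other. The list was not drawn from this comparison, but the comparison is the difference between the siRNA comparisons that chose the genes. Genes on the list had to change with both constructs, so those moved by a single construct were left out beforehand. The counts, intervals and p-values between constructs are therefore a description, and are not free of that choice. With edgeR, 0 of the 31 genes were called between Nfat5-2-siRNA and Nfat5-1-siRNA, beside 0.0403% of all genes, and DESeq2 also called 0 of them. At an unadjusted p-value under 0.05 there were 8 of the 31, beside 14.9% of all genes. The log2 differences ranged from -0.63 to 0.55, and their median absolute value was 0.33 in the 31 genes and 0.33 in all genes tested. The replicates did not overlap for 15 of the 31 genes, beside 46.4% of all genes. With the replicate number as a block, 5 of the 31 genes were called, beside 4.94% of all genes. Of these 5, SLC17A5, SLC44A1, SLC36A4 and ATP11B were lower with Nfat5-2-siRNA and SLC35D1 was higher, beside 2.55% and 2.39% of all genes in these directions.

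SLC17A5 had 94.3 and 77.8 CPM with Nfat5-1-siRNA and 59.7 and 51.3 with Nfat5-2-siRNA, a log2 difference of -0.63 ± 0.13 (adjusted p = 0.00254, edgeR with the replicate block). SLC44A1 had 210 and 165 CPM with Nfat5-1-siRNA and 139 and 121 with Nfat5-2-siRNA, a difference of -0.52 ± 0.13 (adjusted p = 0.0218, edgeR with the block). The replicates of the constructs did not overlap for either gene. SLC36A4, with 44.6 and 35.7 against 28.8 and 25.7 CPM, differed by -0.55 ± 0.14 (adjusted p = 0.0335, edgeR with the block), and it was the one of the 5 not called by DESeq2 with the block (adjusted p = 0.113). ATP11B, with 309 and 264 against 202 and 201 CPM, differed by -0.50 ± 0.13 (adjusted p = 0.0367, edgeR with the block). SLC35D1, with 43.5 and 52.6 against 71.8 and 69.1 CPM, differed by 0.56 ± 0.14 (adjusted p = 0.0250, edgeR with the block). Each of the 5 kept its direction in both passages. For 30 of the 31 genes the interval of 2 standard errors around the blocked difference lay within 1 on the log2 scale, and the exception was KCNMB1, whose interval reached 1.15. For the beta subunits of the sodium pump the intervals were -0.37 to 0.14 (ATP1B1) and -0.56 to -0.04 (ATP1B3).

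**Figure D5:**
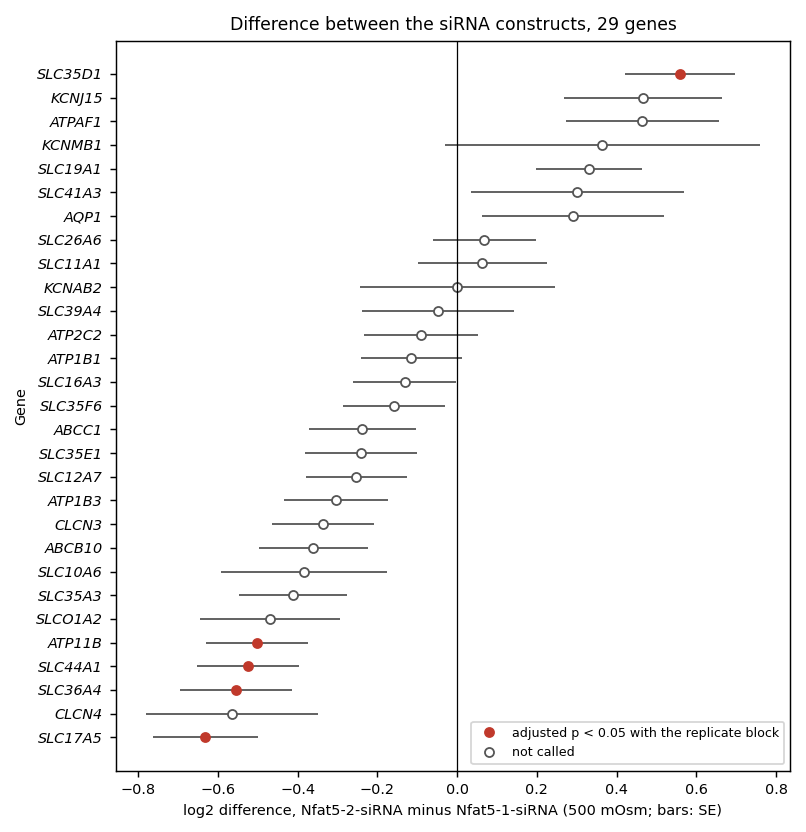
Log2 difference between Nfat5-2-siRNA and Nfat5-1-siRNA at 500 mOsm (points) with its standard error (bars) for 29 of the 31 genes, from the edgeR fit with the replicate block. The 5 filled points are called, 4 of them below 0 and SLC35D1 above 0.

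Cell passage was balanced over the 4 groups, and the list was not drawn from the passage difference. The replicates of each group are the passages, however, and the study names no passage term in its test. A large passage difference therefore made it harder for a gene to enter the list. The median absolute log2 difference was 0.178 in the 31 genes and 0.219 in all genes tested. The passage calls and p-values are a description too. Between passage 17 and passage 15, 4 of the 31 genes were called by edgeR in a fit with group and passage, beside 3.29% of all genes. They were 1 higher and 3 lower in passage 17, beside 1.28% and 2.02%, and 15 of the 31 had an unadjusted p-value under 0.05, beside 18.5% of all genes. SLCO1A2 was higher in passage 17, by 0.69 ± 0.14 on the log2 scale (adjusted p = 0.00107, edgeR), with differences of 1.06, 1.78, 0.80 and -0.23 in the control cells at 300 mOsm and at 500 mOsm and with the first and the second Nfat5 siRNA. ABCB10 was lower, by -0.53 ± 0.10 (adjusted p = 0.000336, edgeR), with 0.03, -0.56, -0.84 and -0.74 in the same groups. ABCC1 was also lower, by -0.38 ± 0.10 (adjusted p = 0.0361, edgeR) and in all 4 groups. Under the filter filterByExpr of edgeR none of the 31 genes was called, beside 101 of the 15388 genes tested. DESeq2 called ABCB10 and ABCC1, beside 483 of the 13682 genes it tested. The call of ABCB10 held in all 8 fits that left out one library, with adjusted p-values of edgeR of at most 0.0348. SLCO1A2 was called in 6 of these 8 fits (log2 difference 0.52 to 1.07) and ABCC1 in 1 (-0.45 to -0.34). Without either Neg-siRNA (500 mOsm) library only ABCB10 of the 4 genes was called, and without any one Nfat5-siRNA library ABCB10 and SLCO1A2 were.

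For context, 17 other genes of the published list whose products are channels, carriers or regulators of transport were followed in the same way. They were chosen by the same 3 comparisons, so they too are a description. At 500 mOsm 8 were called higher and 6 lower, with Nfat5-1-siRNA 2 higher and 6 lower, and with Nfat5-2-siRNA 4 higher and 9 lower, beside the shares of all genes given above for these directions (11.3% and 9.23%, 3.4% and 4.53%, and 4.67% and 7.38%). The counts with Nfat5-1-siRNA and Nfat5-2-siRNA, 8 and 13 in either direction, were lower in each fit that left out 1 library of the compared groups. The number of all genes called was lower in each of these fits too. All 17 were called in each comparison with the block, with DESeq2 and with Benjamini-Hochberg adjustment. Of all genes tested, the block gave 33.1%, 21.5% and 26.1%, DESeq2 32.2%, 18.6% and 24.3%, and Benjamini-Hochberg adjustment 35.5%, 20.3% and 26.5%. FXYD6, a small regulator of the sodium pump, had 5.92 and 6.45 CPM at 300 mOsm, 40.7 and 34.5 at 500 mOsm, 8.74 and 4.75 with Nfat5-1-siRNA and 9.45 and 6.96 with Nfat5-2-siRNA. It rose by 2.60 ± 0.27 on the log2 scale and fell by 2.48 ± 0.27 and 2.20 ± 0.27. STK39, a kinase that regulates cation-chloride cotransporters, rose by 2.30 ± 0.20 and fell by 1.24 ± 0.20 with Nfat5-2-siRNA, with -0.89 ± 0.19 for Nfat5-1-siRNA. NEDD4L, a ubiquitin ligase that removes the epithelial sodium channel from the membrane, rose by 0.78 ± 0.15 and fell by 0.74 ± 0.15 and 0.78 ± 0.15. ANO1, a calcium-activated chloride channel, had 3.91 and 6.13 CPM at 300 mOsm, 1.38 and 2.15 at 500 mOsm, 0.258 and 0.255 with Nfat5-1-siRNA and 0.428 and 0.332 with Nfat5-2-siRNA, the order that SLC41A3 also had. ANO1 fell by 2.77 ± 0.44 and 2.21 ± 0.42 with the siRNAs, and its hyperosmotic change of -1.50 ± 0.37 was not called.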

How the data were processed

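RNA sequencing counts of MDCK I cells were analysed in 8 libraries, 2 per group. The authors mapped 51-base paired-end reads to CanFam 3.1 with HISAT2 2.0.5 and deposited unnormalized counts, for which featureCounts 1.5.1 had assigned reads to Ensembl 92 genes without strand. The command in the file header had no option to count read pairs, so mates may have been counted separately. Symbols were taken from the identifier and symbol columns of the study's list; for genes outside it symbols were not matched, so cell type markers and other family members were not analysed here. The genes, roles and lists were chosen with earlier results of these data known.

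Counts were tested with edgeR 4.0.16 (R 4.3.3), TMM, a summed count of at least 5, 1 design of 4 groups and Benjamini-Yekutieli adjustment at 0.05. The study used DESeq2, tried here (1.42.0) as an alternative together with other scaling, filters, Benjamini-Hochberg adjustment, fewer libraries and leaving out each library. By the rule every gene was to be named, with values per library for the sodium pump genes, the gene of each role with the highest level per length, the 4 largest changes per comparison and the genes called between constructs or passages; 2 genes counted among the 31 are not reported here individually or plotted. The context list of 17 genes was used because other family members could not be matched.

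The replicate number is the passage in the labels and pairs the samples: over 12424 genes with a mean CPM of at least 1, deviations of same-passage libraries correlated with r between 0.110 and 0.435 in all 6 pairs of groups. Nothing states that replicates were more than separate passages of one line, so p-values measure the spread between these libraries, after removal of the passage difference where the block or the passage contrast is used. On simulated counts with 200 changed genes, the comparison of constructs recovered 44 of 107 genes changed 2-fold without the block (19465 genes tested) and 86 of 104 with it (19489 tested).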

Additional observations from a re-analysis of the deposited data

How the results depend on the processing

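Each group had 2 libraries, and the common dispersion was 0.0320 (0.0168 with the replicate block). None of 153 gene changes (the 31 genes and 17 context genes in the 3 comparisons that chose them, 5 genes between constructs and 4 between passages) turned its direction in any alternative run. Of 77 alternative counts of members called, 62 were within 1.5 times of the count given in the report and 15 were not. The 62 include 14 counts between the constructs that were 0 in both, which say nothing about stability. Between the constructs, 5 of 31 genes were called with the replicate block and 4 with DESeq2 and the block, an alternative chosen after seeing the data, against 0 without it; the passage contrast always holds the block. Between passages, 0 of the 31 genes were called with filterByExpr and 2 with DESeq2, against 4. Over all genes the passage calls were 101 of 15388 tested with filterByExpr and 483 of 13682 tested with DESeq2. Leaving out one library gave 22 to 27 calls for hyperosmolality, 2 to 21 for Nfat5-1-siRNA, 15 to 25 for Nfat5-2-siRNA, 0 to 0 between constructs and 1 to 6 between passages; a lone library was assumed to vary like the other groups. Over all genes, leaving out one library gave 2384 to 4157 calls for hyperosmolality (4077 with all libraries), 159 to 1620 for Nfat5-1-siRNA (1572), 954 to 2272 for Nfat5-2-siRNA (2390), 0 to 38 between constructs (8) and 315 to 681 between passages (653). Among the 17 context genes it gave 11 to 15, 1 to 10 and 5 to 13 calls in the 3 chosen comparisons. With the other alternatives the 8 genes called between constructs became 34 with DESeq2 size factors, 297 with no filter, 0 with filterByExpr or only the 4 libraries compared, 213 with DESeq2, 186 with Benjamini-Hochberg, 979 with the block and 694 with DESeq2 and the block. Between passages, 653 genes became 101 with filterByExpr and 1570 with Benjamini-Hochberg. In the chosen comparisons the counts over all genes went up for hyperosmolality from 4077 to 7033 with Benjamini-Hochberg and 6565 with the block, for Nfat5-1-siRNA from 1572 to 4033 and 4264, and for Nfat5-2-siRNA from 2390 to 5250 and 5168. DESeq2 with the block gave 3828 and 4624 for the siRNAs, no filter gave 2662 and DESeq2 2682 for Nfat5-1-siRNA, and only the 4 libraries compared gave fewer, 1565, for Nfat5-2-siRNA. Apart from alternatives that drop genes or samples, the cause was not tested. DESeq2 size factors shifted the median log2 fold change of all genes by at most 0.0482.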
